A study of Mus musculus with 31 samples.

Results

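The 8 genes described here encode the core of the mTOR pathway and were taken by name: Mtor, Rptor, Rictor, Tsc1, Tsc2, Akt1, Rheb and Rps6kb1. They were found by symbol among the 48709 mouse genes of each count table, and all 8 passed the filter on low counts, as did 17428 genes in all. mTOR is a protein kinase that joins nutrient and growth factor signals to protein synthesis and cell growth. It works in 2 complexes, mTOR complex 1 with the scaffold raptor and mTOR complex 2 with rictor. In neurons the pathway is known for its part in dendrite growth, local translation at synapses and synaptic plasticity, and mutations of the TSC genes cause tuberous sclerosis, a disorder with epilepsy and autism.

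RNA came from the basolateral amygdala (BLA) of 31 C57BL/6N mice, with the punches of both hemispheres pooled for each mouse. The mice were 16 wild types (WT) and 15 that overexpressed CYFIP1 from a human CYFIP1 bacterial artificial chromosome (CYFIP1 OE). The transgene was placed in the genome by pronuclear injection, so that each line carries its own insertion. The study describes its controls as wild-type littermates. The transgenic lines are labelled 1 and 3. Line 1 gave 8 WT mice (4 males, 4 females, aged 59 to 61 days) and 7 CYFIP1 OE mice (3 males, 4 females, aged 59 to 77 days), and line 3 gave 8 WT mice (4 males, 4 females, aged 58 to 60 days) and 8 CYFIP1 OE mice (4 males, 4 females, aged 58 to 64 days). The 4 mice that had reached 77 days all belonged to the CYFIP1 OE group of line 1. In line 1, 7 of the 8 WT mice also shared a prefix of the mouse name that 0 of the 7 CYFIP1 OE mice had. A comparison within litters can therefore not be assumed there. The libraries were QuantSeq libraries, which read the 3′ end of each transcript about once, so levels in CPM (read counts scaled to a common library size) can be compared between genes without division by length, as far as their 3′ ends are mapped equally well.

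Total counts per mouse ranged from 5286925 to 8685521, and none of the 465 pairs of libraries was identical. The count tables are by mouse gene and do not show the human transgene as such, and mouse Cyfip1 itself stood at 33.5 ± 4.48 CPM (SD) in the 16 WT mice and at 33.01 ± 3.66 CPM (SD) in the 15 that carried the transgene. Xist and Ddx3y separated all females from all males. The cellular makeup of the punches varied widely: the summed level of 7 striatal projection neuron markers ran from 249 to 5918 CPM and that of 8 markers of glutamatergic BLA neurons from 573 to 3728 CPM, and Slc17a7, the vesicular glutamate transporter that defines cortical-type glutamatergic neurons, ran from 3.01 to 1109 CPM. A male CYFIP1 OE mouse of line 3 (replicate 1) correlated poorly with all others, with a connectivity Z-score of -4.74 against -1.18 for the next lowest. In such bulk tissue, fewer cells of a type and less RNA per cell cannot be told apart.

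The promoters of 3 members are shown because the levels of Mtor and Akt1 moved together across mice and because Rheb differed most between the lines in its genotype difference. Each is the RefSeq window of GRCm38.p6 from 250 bases before to 50 after the annotated start, 5′ to 3′ on the gene's own strand, at chr4:148448332-148448631 (plus strand) for Mtor, chr12:112674227-112674526 (minus strand, the GC-rich of 2 listed starts) for Akt1 and chr5:24842312-24842611 (minus strand) for Rheb. Capitals mark the GC box, GGGCGG or its reverse complement CCGCCC, and in Rheb also the palindromic E-box CACGTG.
Mtor: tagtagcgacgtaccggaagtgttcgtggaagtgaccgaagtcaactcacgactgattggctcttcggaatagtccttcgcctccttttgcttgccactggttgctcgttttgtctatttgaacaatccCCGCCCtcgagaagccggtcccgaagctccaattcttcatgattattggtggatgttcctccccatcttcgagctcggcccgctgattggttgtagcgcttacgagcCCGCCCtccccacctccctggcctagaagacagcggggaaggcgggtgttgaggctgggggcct
Akt1: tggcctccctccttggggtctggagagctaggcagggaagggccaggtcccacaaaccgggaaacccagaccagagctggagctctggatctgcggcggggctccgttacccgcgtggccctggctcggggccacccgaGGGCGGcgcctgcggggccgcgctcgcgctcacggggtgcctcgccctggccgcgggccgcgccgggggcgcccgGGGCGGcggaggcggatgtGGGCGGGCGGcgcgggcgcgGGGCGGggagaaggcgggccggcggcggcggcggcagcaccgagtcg
Rheb: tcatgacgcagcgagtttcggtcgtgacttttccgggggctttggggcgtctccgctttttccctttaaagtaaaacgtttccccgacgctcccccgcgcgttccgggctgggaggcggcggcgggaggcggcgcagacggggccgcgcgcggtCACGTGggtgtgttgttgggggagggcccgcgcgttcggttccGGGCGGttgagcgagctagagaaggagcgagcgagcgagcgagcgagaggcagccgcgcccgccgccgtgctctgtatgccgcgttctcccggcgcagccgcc

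The Mtor window held 2 GC boxes, the Akt1 window held 5, of which 1 pair overlapped, and the Rheb window held 1 beside its E-box. The other listed Akt1 window, at chr12:112674835-112675134 (minus strand), held none of the motifs searched. All 8 members matched the promoter table, and 4 of them (Mtor, Akt1, Rheb and Rictor) had a GC box, which 35.7% of the 32851 promoters of this length held. An E-box was found in Rheb alone and in 7.15% of all promoters. Of the other motifs searched on both strands, the ETS box CCGGAAG lay in Mtor and Tsc2 (8.86% of all promoters), the CCAAT box CCAAT in Mtor and Rictor (37.4%) and the NRF1 site GCGCATGC in Rps6kb1 (2.71%). The TATA box TATAAA (13.6%) and the cAMP response element TGACGTCA (1.79%) were in none of the 8 windows as searched. The members' windows held between 8 and 47 CpG dinucleotides, against a median of 7 over all promoters. These are matches of letters, and no factor binding was measured.

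All 8 genes were expressed at moderate levels, and Akt1 was the most abundant member. The genes of the mTOR kinase and its 2 scaffolds first: Mtor (chr4:148448611-148557683) averaged 29.0 ± 5.77 CPM over the 31 mice (SD). Rptor (chr11:119602905-119899576), which encodes the raptor scaffold that brings substrates to complex 1, was the lowest at 13.9 ± 3.27 CPM, and Rictor (chr15:6708379-6800401), the defining subunit of complex 2, stood at 28 ± 4.40 CPM. Rictor exceeded Rptor in 31 of 31 mice.

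The TSC complex is the brake on the pathway, in which Tsc2 carries the GTPase-activating domain that switches Rheb off and Tsc1 stabilizes it. Tsc1 (chr2:28641228-28691167) averaged 31.5 ± 4.87 CPM and Tsc2 (chr17:24595816-24632630) 41.9 ± 8.71 CPM. Rheb (chr5:24802823-24842624), the small GTPase that activates complex 1 at the lysosome, averaged 41.3 ± 9.03 CPM. Its paralog Rhebl1 was far lower, with a median of 5.83 CPM.

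Akt1 (chr12:112653821-112674884), the kinase that passes insulin and growth factor signals on to the TSC complex and is itself phosphorylated by complex 2, averaged 55.7 ± 9.33 CPM. Rps6kb1 (chr11:86498871-86544805), which encodes the S6 kinase that complex 1 phosphorylates, averaged 32.5 ± 4.59 CPM. In rank among the tested genes, the members lay above 59.2% (Rptor) to 86.4% (Akt1) of them.

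Ordered by mean level, the members ran Akt1, Tsc2, Rheb, Rps6kb1, Tsc1, Mtor, Rictor and Rptor, and not all neighbours in that order were separated. Neighbours were compared within mice by a two-sided sign-flip permutation test on log2 CPM, with Benjamini-Hochberg adjustment over 7 comparisons. Akt1 lay above Tsc2 by 0.41 ± 0.45 in log2 (SD over 31 mice, permutation adjusted p = 0.000187, higher in 28 of 31 mice), Rheb above Rps6kb1 by 0.33 ± 0.38 (permutation adjusted p = 0.000187, 26 of 31 mice), and Rictor above Rptor by 1.02 ± 0.44 (permutation adjusted p = 7e-05, from the smallest p the resamples can give). Tsc2 and Rheb (permutation adjusted p = 0.77), Rps6kb1 and Tsc1 (0.609), Tsc1 and Mtor (0.0744) and Mtor and Rictor (0.657) did not differ beyond their spread. Between mice, the levels varied with a CV of 14.1% (Rps6kb1) to 23.6% (Rptor). Counting error alone, at each member's mean read count, gives a CV of 4.9% (Akt1) to 9.83% (Rptor). The median counts ran from 97 (Rptor) to 420 (Akt1) reads per mouse.

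The first comparison asked whether the pathway's transcripts changed with CYFIP1 overexpression. None of the 8 members had an unadjusted p under 0.05, in a comparison in which 4.3% of all tested genes did (0.293% at a p under 0.005). Of the members 4 were higher and 4 lower in CYFIP1 OE mice, with a median log2 difference of 0.01 against -0.01 over all genes. The test was edgeR's quasi-likelihood test with terms for sex, line and genotype, and the adjusted p over all genes was 0.999 for each member.

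**Figure D1:**
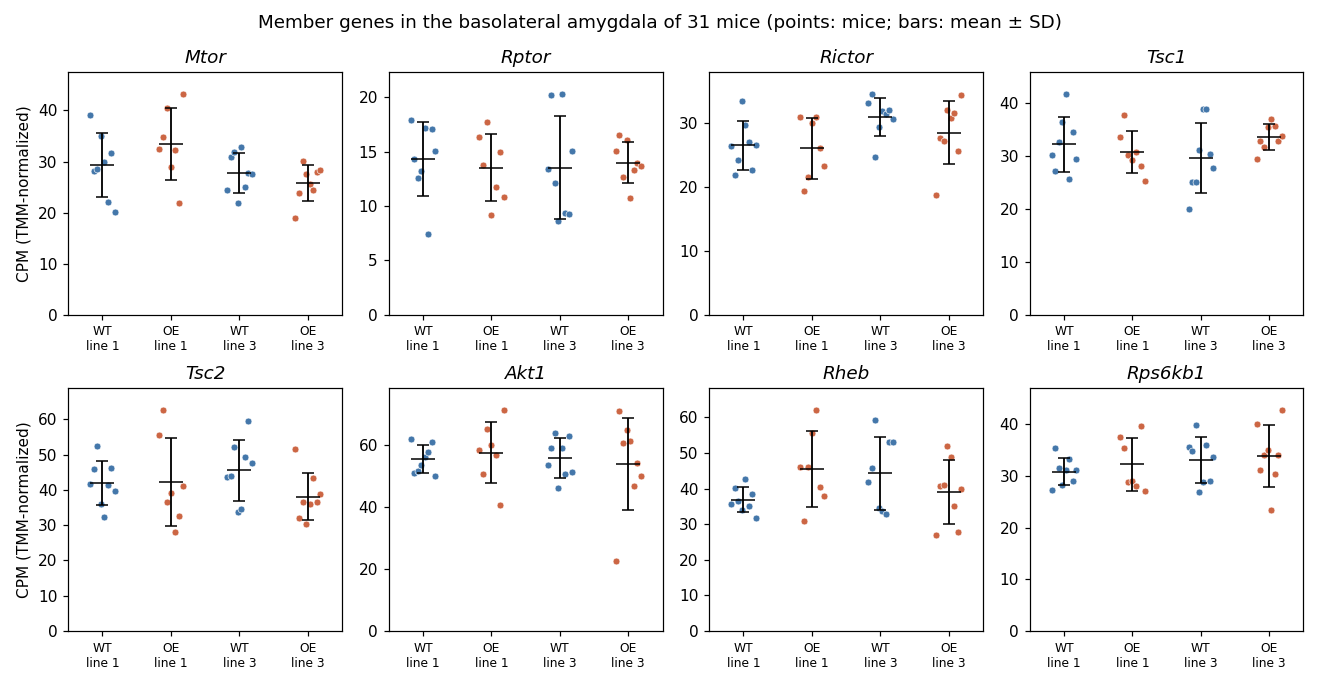
CPM of the 8 member genes in each mouse (y axis, linear from 0) by genotype and line (x axis), with the mean and SD as black bars. WT (blue) and CYFIP1 OE mice (orange) overlap in every panel, and the lowest Akt1 value, 22.8 CPM, is the line 3 CYFIP1 OE mouse of low connectivity.

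Mtor ranged from 20.1 to 39.2 CPM in WT mice (median 28.4) and from 19.0 to 43.2 CPM in CYFIP1 OE mice (median 28.3). The fitted log2 difference was 0.04 ± 0.10 (SE, edgeR p = 0.695), with a 95% interval of the fold from 0.891 to 1.19. The groups overlapped over nearly their whole range, and 7 of the 15 transgenic mice exceeded the WT mean.

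Rptor ranged from 7.42 to 20.3 CPM in WT (median 13.9) and from 9.17 to 17.7 CPM in CYFIP1 OE mice (median 13.8). All CYFIP1 OE values lay inside the WT range, and the fold interval was 0.818 to 1.19 (log2 difference -0.02 ± 0.13, edgeR p = 0.886). Rictor ranged from 21.9 to 34.5 CPM (median 29.4) in WT and from 18.6 to 34.3 CPM (median 27.6) in CYFIP1 OE mice. Its log2 difference was -0.08 ± 0.09 (edgeR p = 0.395), with a fold interval of 0.837 to 1.07, and 7 of 15 CYFIP1 OE mice exceeded the WT mean.

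The transcripts of the 2 scaffolds were compared by the log2 ratio of Rptor to Rictor within each mouse. No protein or complex was measured, so the ratio does not give the balance between the complexes. Over the 16 WT mice it was -1.07 ± 0.48 (SD) and over the 15 transgenic mice -0.97 ± 0.42 (SD), a difference of 0.11 with genotype permuted within line and sex (two-sided permutation p = 0.477). The ratios ran from -1.83 to -0.40 in WT and from -1.68 to -0.28 in CYFIP1 OE mice, so the ranges overlapped.

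Of the brake genes, Tsc1 ranged from 20 to 41.7 CPM in WT (median 30.3) and from 25.3 to 37.6 CPM in CYFIP1 OE mice (median 32.9). Its log2 difference was 0.06 ± 0.09 (edgeR p = 0.519, fold interval 0.916 to 1.18), and the CYFIP1 OE values lay inside the WT range. Tsc2 ranged from 32.2 to 59.6 CPM in WT (median 43.8) and from 27.97 to 62.6 CPM in CYFIP1 OE mice (median 36.6).

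Tsc2 had the largest genotype difference among the members, -0.13 ± 0.11 in log2 (edgeR p = 0.251, fold interval 0.787 to 1.07). The CYFIP1 OE mice held both the lowest and the highest Tsc2 value, and 3 of 15 exceeded the WT mean. With 5 surrogate variables as added covariates the log2 difference was -0.22 (edgeR p = 0.0247). The log2 ratio of Tsc1 to Tsc2 was -0.50 ± 0.44 (SD) over WT and -0.28 ± 0.33 (SD) over transgenic mice, a difference of 0.21 that did not pass the test (two-sided permutation p = 0.153).

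Rheb ranged from 31.8 to 59.4 CPM in WT (median 37.5) and from 27.1 to 62.1 CPM in CYFIP1 OE mice (median 40.9), and 8 of the 15 transgenic mice exceeded the WT mean. The pooled log2 difference was 0.04 ± 0.11 (edgeR p = 0.705, fold interval 0.881 to 1.2). Akt1 ranged from 46.3 to 63.8 CPM in WT (median 54.9) and from 22.8 to 71.3 CPM in CYFIP1 OE mice (median 58.4).

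The means of Akt1 were nearly equal (55.7 CPM in both groups), and its log2 difference was -0.02 ± 0.10 (edgeR p = 0.878, fold interval 0.862 to 1.14). The CYFIP1 OE mice spread more widely, with an SD of 12.5 CPM against 5.36 CPM in WT, and both the lowest and the highest mice were CYFIP1 OE mice. Without the mouse of low connectivity the SD was 8.86 CPM (n = 14), and the difference in spread was not tested. Rps6kb1 ranged from 26.9 to 39.9 CPM in WT (median 31.4) and from 23.3 to 42.7 CPM in CYFIP1 OE mice (median 34.1), with a log2 difference of 0.05 ± 0.08 (edgeR p = 0.573, fold interval 0.921 to 1.16). Without the mouse of low connectivity the 8 log2 differences ran from -0.16 (Tsc2, p = 0.154) to 0.08 (Rheb, p = 0.448), and again none had a p under 0.05.

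**Figure D2:**
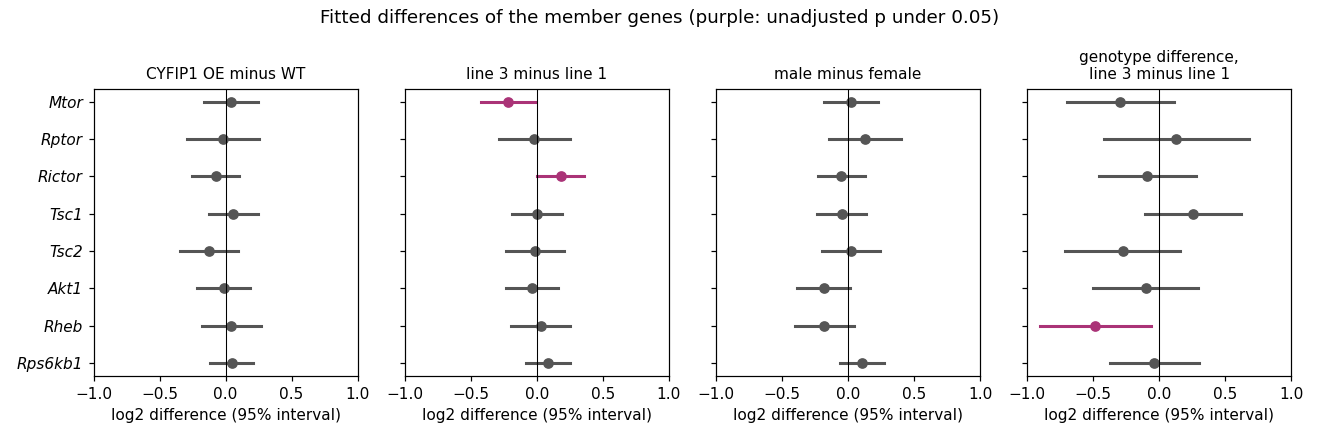
Fitted log2 differences of the 8 members (points) with 95% intervals (lines) for genotype, line, sex and the genotype by line interaction. In the genotype panel all 8 intervals include 0. Purple marks an unadjusted p under 0.05, which was met by Mtor and Rictor for line and by Rheb for the interaction.

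The wider pathway was covered by 82 further genes in 6 branches, of which 81 passed the filter (Irs1, an insulin receptor substrate, did not). None of the 81 had an unadjusted p under 0.05 for genotype, beside 4.3% of all tested genes. Of the 81, 40 were higher and 41 lower, with a median log2 difference of -0.01. By branch, the complex partners had 6 higher and 2 lower of 8, the PI3K-AKT axis 9 and 6 of 15, the amino acid branch at the lysosome 11 and 16 of 27, the energy and stress inputs 3 and 5 of 8 and the downstream genes 9 and 12 of 21, and both genes of the TSC branch were higher. The smallest p was 0.0795, for Itfg2, a subunit of the KICSTOR complex that recruits the GATOR1 brake (log2 difference -0.24 ± 0.13).

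Among the partners, Mlst8, a subunit of both complexes, stood at 30.4 ± 7.38 CPM in WT and 32.5 ± 7.05 CPM in CYFIP1 OE mice. Mapkap1, which encodes the complex 2 subunit Sin1, stood at 32.8 ± 5.86 and 30.5 ± 8.26 CPM. The inhibitory subunits differed in level: Deptor stood at 32.5 ± 6.76 and 36.4 ± 9.47 CPM, but Akt1s1, which encodes PRAS40, only at 2.28 ± 0.87 and 2.97 ± 1.89 CPM. Tbc1d7, the small subunit of the TSC complex, was likewise low, at 4.499 ± 1.29 and 4.76 ± 1.85 CPM.

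Akt2, a paralog of Akt1, was more abundant than any member, at 97.03 ± 29.6 CPM in WT and 102 ± 37.8 CPM in CYFIP1 OE mice. Downstream, the translation repressors Eif4ebp1 (5.81 ± 1.97 and 6.22 ± 3.06 CPM) and Eif4ebp2 (5.51 ± 2.10 and 5.30 ± 1.91 CPM) were read at low depth. Rps6kb2, the second S6 kinase gene, stood at 11.3 ± 2.85 and 11.1 ± 5.48 CPM, and Rps6, the ribosomal protein both kinases phosphorylate, at 61.1 ± 13.2 and 71.4 ± 28.8 CPM.

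At the lysosome, the Ragulator subunits Lamtor4 (43.1 ± 9.22 and 43.3 ± 10.6 CPM) and Lamtor5 (35.8 ± 6.45 and 37.1 ± 6.32 CPM) were nearly level between genotypes, and the GTPase Rragb stood at 2.79 ± 1.495 and 4.20 ± 3.77 CPM. The stress-induced inhibitor Ddit4 stood at 43.2 ± 12.6 and 40.01 ± 10.7 CPM. Sgk1, a complex 2 substrate induced by glucocorticoids, stood at 50.9 ± 28.4 CPM in WT and 38.5 ± 17.4 CPM in CYFIP1 OE mice. Its log2 difference was -0.37 ± 0.20 (edgeR p = 0.0796), and 2 of 15 CYFIP1 OE mice exceeded the WT mean. Its values ran from 17.2 to 130 CPM in WT (median 44.0) and from 15.3 to 89.8 CPM in CYFIP1 OE mice (median 33.8). Ddit4 and Sgk1 are also known as genes that stress hormones raise. Of the marker lists, that of oligodendrocytes had the largest median log2 difference by genotype, -0.35 with 10 of 10 genes lower, but none of its genes had a p under 0.05 (smallest p = 0.135). Such a p was met by 2 of 10 neuron markers (smallest p = 0.00823), 2 of 8 astrocyte markers (0.0195) and 1 of 7 microglia markers (0.00727). Each of them was higher in CYFIP1 OE mice, and 4.3% of all tested genes had such a p. Over the full lists, 6 neuron markers were higher and 4 lower, 3 astrocyte markers higher and 5 lower, and 5 microglia markers higher and 2 lower. The part of these cell types in the pathway's values was not tested.

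**Figure D3:**
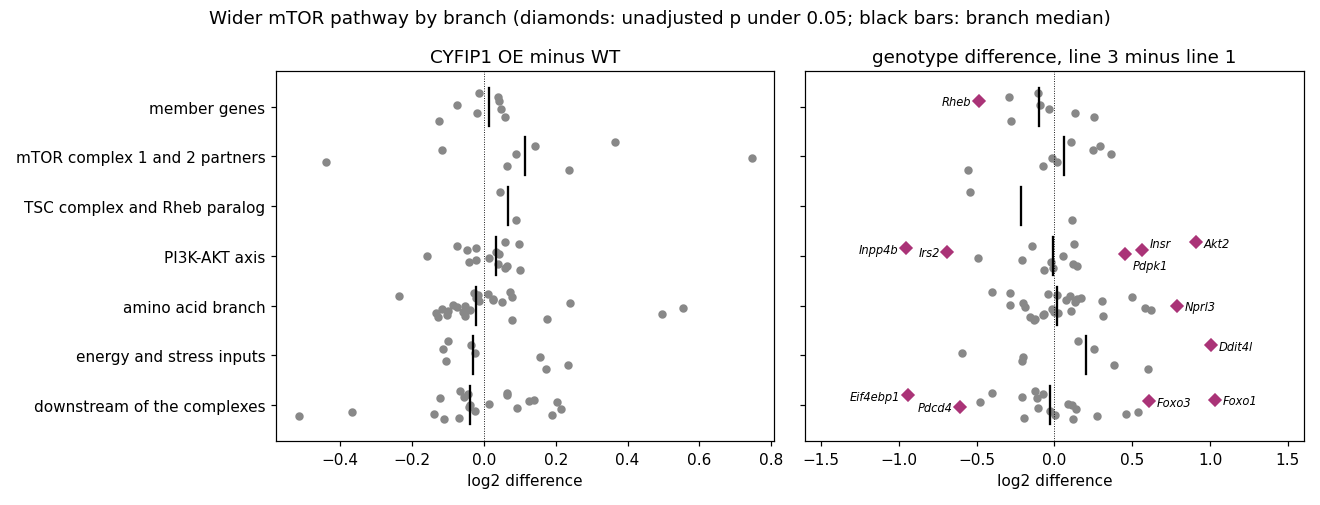
Log2 differences of the members and the 6 branches of the wider list (1 point per gene, black bar at the median) for genotype (left) and for the genotype difference in line 3 minus that in line 1 (right). No gene has an unadjusted p under 0.05 on the left, and on the right the 12 that do are drawn as diamonds with their names.

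The lines differed in 2 members at an unadjusted p under 0.05, where 3.31% of all genes did, and the adjusted p was 1 for each member. Mtor was lower in line 3, with 29.4 ± 6.27 CPM in WT mice of line 1 and 27.8 ± 3.91 CPM in those of line 3, and 33.4 ± 7.10 and 25.9 ± 3.49 CPM in CYFIP1 OE mice. The log2 difference was -0.22 ± 0.10 (edgeR p = 0.0388). It was -0.36 among CYFIP1 OE mice alone (p = 0.0276) and -0.07 among WT mice alone (p = 0.591), and without the mice aged 77 days it was -0.17 (p = 0.144). Age and line cannot be told apart fully, since the older mice were all of line 1.

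Rictor was higher in line 3, with 26.5 ± 3.78 CPM in WT mice of line 1 and 30.9 ± 2.98 CPM in those of line 3, and 26.0 ± 4.75 and 28.4 ± 4.90 CPM in CYFIP1 OE mice. The log2 difference was 0.18 ± 0.09 (edgeR p = 0.0492), and it was 0.22 among WT mice alone (p = 0.0615). All 4 groups overlapped for both genes, and with each mouse left out in turn Mtor kept a p under 0.05 in 22 of 31 fits (highest p = 0.0817) and Rictor in 7 of 31 (highest p = 0.0981). In the wider list Fnip1, a folliculin partner at the lysosome, was higher in line 3 (log2 difference 0.17, p = 0.0379) and Grb10, an adaptor that damps insulin signalling, was lower (-0.38, p = 0.0241). Glutamatergic BLA markers were higher in line 3 for 7 of 8 genes (median log2 difference 0.47, 1 with p under 0.05) and GABAergic markers were lower for 5 of 7 (median -0.19, 1 with p under 0.05, p = 0.0459). The part of either list in the values of Mtor and Rictor was not tested.

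By sex, no member had a p under 0.05, beside 4.62% of all genes. The largest differences were in Akt1 (male minus female -0.19 ± 0.10 in log2, edgeR p = 0.0663) and Rheb (-0.18 ± 0.11, p = 0.109), both lower in males. Rptor (0.13 ± 0.13) and Rps6kb1 (0.11 ± 0.08) had the largest differences in the other direction. In the wider list 6 of 81 genes had a p under 0.05, of which Sgk1 was higher in males (0.59, p = 0.00634) and Ddit4l (-0.50, p = 0.0317), Sgk3 (-0.32, p = 0.0342), Rraga (-0.23, p = 0.0356), Lamtor3 (-0.20, p = 0.043) and Fnip1 (-0.16, p = 0.0428) were lower, with an adjusted p of 0.97 for each.

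The last comparison asked whether the genotype difference was the same in both lines. Rheb was the 1 member with an unadjusted p under 0.05 in the genotype by line interaction, in which 8.1% of all genes had one. In line 1, Rheb ranged from 31.8 to 42.7 CPM in WT (median 36.1) and from 30.9 to 62.1 CPM in CYFIP1 OE mice (median 46.1). In line 3 it ranged from 32.9 to 59.4 CPM in WT (median 43.9) and from 27.1 to 51.9 CPM in CYFIP1 OE mice (median 40.4).

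The Rheb difference was thus 0.29 ± 0.15 in log2 in line 1 (edgeR p = 0.0579) and -0.19 ± 0.14 in line 3 (p = 0.19), and the interaction was -0.48 ± 0.21 (p = 0.0252, adjusted p = 0.57). Within the lines no member had a p under 0.05 in the joint fit, where 3.96% of all genes did in line 1 and 7.93% in line 3. WT and CYFIP1 OE mice overlapped in both lines. In line 1, 7 of the 8 WT mice shared a name prefix that 0 of the 7 CYFIP1 OE mice had, and 1 of 6 prefixes held both genotypes, with 1 mouse of each, so in line 1, and hence in the interaction, genotype and name prefix cannot be told apart. In line 3 all 4 prefixes held both genotypes, and with the prefix as a block the Rheb difference there was -0.19 (p = 0.299). Over the 18 mice of both lines whose prefix held both genotypes, the blocked genotype difference of Rheb was -0.09 (p = 0.633).

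The interaction was -0.35 (p = 0.128) with neuron, oligodendrocyte and striatal marker scores as covariates, -0.07 (p = 0.665) with 5 surrogate variables, -0.40 (p = 0.098) with age as a covariate and -0.39 (p = 0.0979) without the mice aged 77 days. Without WT replicate 3, CYFIP1 OE replicate 6 or CYFIP1 OE replicate 7 it was -0.38 (p = 0.0677), -0.44 (p = 0.0504) and -0.40 (p = 0.0627).

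The other 7 members had interaction estimates from -0.29 (Mtor, SE 0.20, p = 0.151) to 0.25 (Tsc1, SE 0.18, p = 0.168), with Tsc2 at -0.28 ± 0.21 (p = 0.207). Where 8.1% of all genes had a p under 0.05, 11 of the 81 wider genes did, 7 with a positive and 4 with a negative estimate. Those with a positive one, with the fitted CYFIP1 OE level below WT in line 1 and above it in line 3, were Foxo1 (1.03 ± 0.34, p = 0.00405) and Foxo3 (0.61 ± 0.21, p = 0.0074), transcription factors that AKT holds out of the nucleus, Akt2 (0.91 ± 0.32, p = 0.00768), Nprl3, a GATOR1 subunit (0.79, p = 0.0202), Ddit4l (1.01, p = 0.0204), Pdpk1, the kinase that activates AKT (0.45, p = 0.0224), and the insulin receptor gene Insr (0.56, p = 0.0364).

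Those with a negative estimate were the insulin receptor substrate Irs2 (-0.69 ± 0.25, p = 0.0086), the S6 kinase target Pdcd4 (-0.61, p = 0.0247), Eif4ebp1 (-0.94, p = 0.0315) and the lipid phosphatase gene Inpp4b (-0.95, p = 0.0378). All adjusted p-values were between 0.535 and 0.586. Foxo1 had medians of 80.0 CPM in WT and 55.7 CPM in CYFIP1 OE mice of line 1, and of 49.1 and 82.7 CPM in line 3. Akt2 had medians of 98.5 and 74.8 CPM in line 1 and of 76.5 and 121 CPM in line 3. Single values overlapped between the genotypes in both lines for both genes.

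Markers of several cell types had a p under 0.05 in this interaction, as did 8.1% of all genes. All 7 tested striatal projection neuron markers had a p under 0.05 (median log2 estimate 1.497, -0.81 in line 1 and 0.68 in line 3), with medians of their summed level of 3739 CPM in WT and 2385 CPM in CYFIP1 OE mice of line 1, and of 2413 and 3707 CPM in line 3. Of the defining striatal genes, the dopamine receptor gene Drd1 ran from 9.71 to 328 CPM over the mice, and Drd2 was below the filter. Of the 8 glutamatergic BLA markers 7 had a negative estimate (median -1.38) and 1 a p under 0.05, with medians of the sum of 864 and 1022 CPM in line 1 and 1252 and 1105 CPM in line 3. Such a p was also met by 2 of 7 GABAergic markers, the only 2 with a negative estimate, against 5 with a positive one (median 0.28). Of 7 microglia markers, 2 met it with a positive estimate, in a list with 5 positive and 2 negative estimates. Of 10 neuron markers, 2 met it with a positive and 1 with a negative estimate. Oligodendrocyte, astrocyte and endothelial markers did not meet it. The smallest adjusted p in these lists was 0.548. The number of wider-list genes with a p under 0.05 was 2 with the marker scores as covariates, 2 with 5 surrogate variables, 6 with age as a covariate and 6 without the mice aged 77 days, against 11 without the mouse of low connectivity. The share of all genes with such a p was not computed for these fits, so the counts do not set the pathway apart from other genes. The part of the tissue makeup in the values of Rheb and the other genes was not tested beyond these fits.

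**Figure D4:**
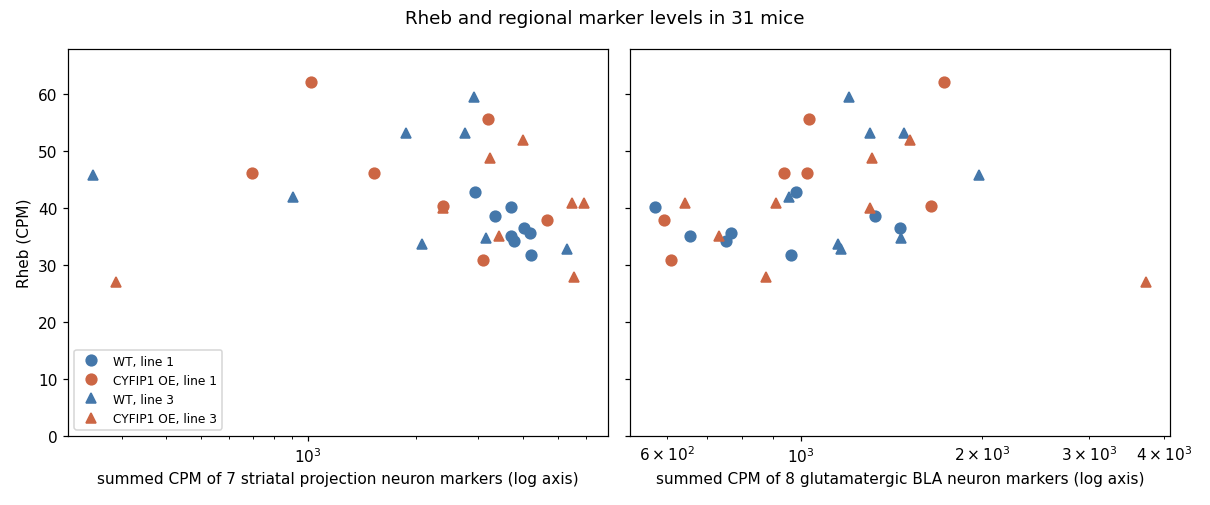
Rheb in CPM (y axis, from 0) in each of 31 mice against the summed CPM of 7 striatal projection neuron markers (left) and 8 glutamatergic BLA neuron markers (right), both on log axes. The WT mice of line 1 lie close together on the left, between 2934 and 4219 CPM of striatal markers, while the other groups spread from 249 to 5918 CPM.

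Members were then compared with each other over the 31 mice, in log2 CPM after removal of sex, line and genotype. Of 28 pairs, 1 passed an adjusted permutation p of 0.05: Mtor and Akt1 rose and fell together (Pearson's r = 0.66, permutation p = 1e-05, the smallest the resamples can give, adjusted p = 0.00028; Spearman's rho = 0.58, adjusted p = 0.023). The r was 0.78 in line 1 and 0.69 in line 3, 0.58 without the 2 mice farthest from the median of Mtor and 0.64 without the mouse of low connectivity.

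Akt1 and Rheb followed (r = 0.44, permutation p = 0.0111, adjusted p = 0.156; rho = 0.35, adjusted p = 0.328; r = 0.36 without the 2 farthest mice). Rictor and Tsc2 had the most negative value (r = -0.41, permutation p = 0.0205, adjusted p = 0.192; rho = -0.33, adjusted p = 0.353), which was -0.18 without the 2 farthest mice. For partners within a complex, r was 0.28 for Mtor and Rptor (permutation p = 0.13, adjusted p = 0.364; rho = 0.23, adjusted p = 0.649), 0.09 for Mtor and Rictor (permutation p = 0.638, adjusted p = 0.777; rho = -0.05, adjusted p = 0.914) and -0.12 for Tsc1 and Tsc2 (permutation p = 0.508, adjusted p = 0.749; rho = -0.14, adjusted p = 0.857). Without the 2 farthest mice these were 0.42, -0.15 and -0.04.

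**Figure D5:**
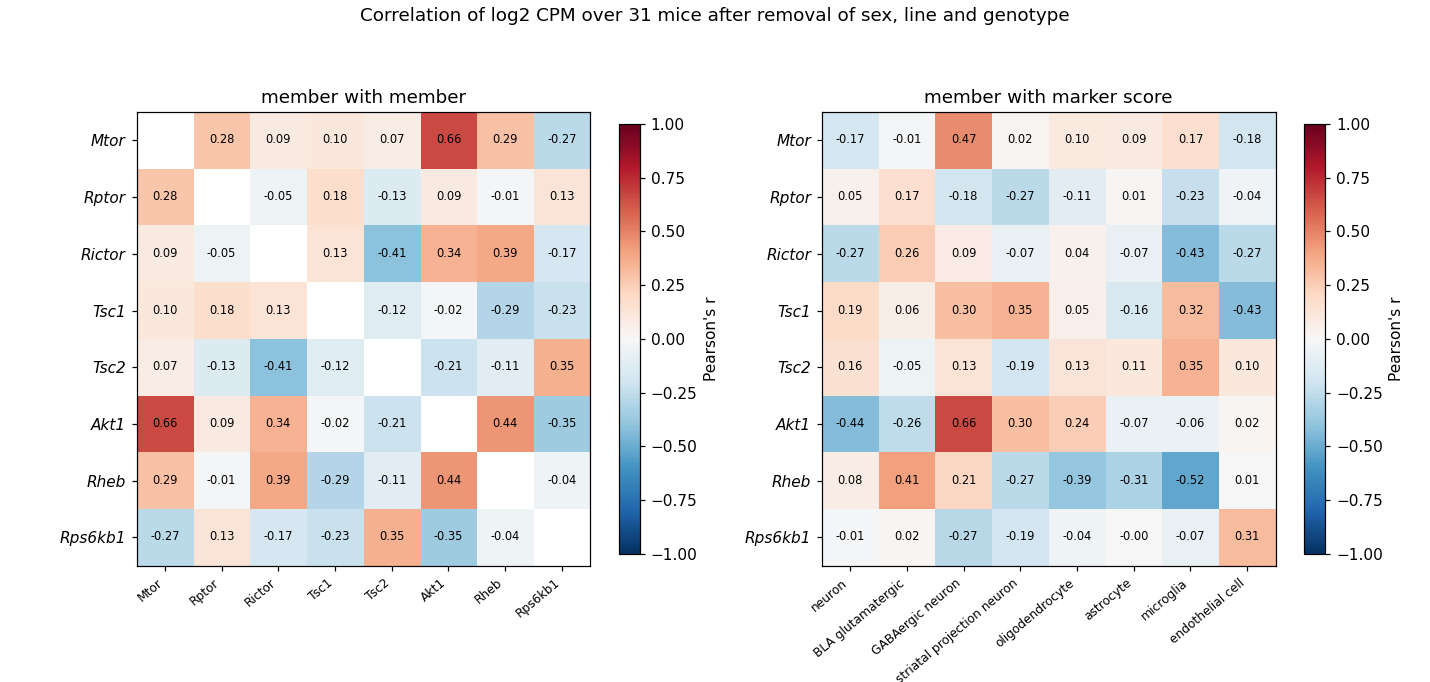
Pearson's r (colour and printed value) between pairs of members (left) and between members and the scores of 8 cell type marker lists (right), over 31 mice after removal of sex, line and genotype. Mtor with Akt1 and Akt1 with the GABAergic neuron score, both at 0.66, are the strongest.

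Against the scores of 8 marker lists, 1 of 64 relations passed the adjusted threshold, that of Akt1 with the GABAergic neuron score (r = 0.66, permutation p = 0.00015, adjusted p = 0.0096; rho = 0.56, adjusted p = 0.0483; r = 0.58 without the 2 farthest mice). The r was 0.59 in line 1 and 0.70 in line 3. Without the mouse of low connectivity it was 0.47 and no relation passed. Mtor, which moved with Akt1, had an r of 0.48 with the same score (permutation p = 0.00657, adjusted p = 0.14; rho = 0.46, adjusted p = 0.16; 0.55 without the 2 farthest mice).

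Rheb had an r of -0.52 with the microglia score (permutation p = 0.00293, adjusted p = 0.0938; rho = -0.58, adjusted p = 0.0483; r = -0.59 without the 2 farthest mice). Its r was 0.41 with the glutamatergic BLA score (permutation p = 0.0223, adjusted p = 0.204; rho = 0.43, adjusted p = 0.191) and -0.27 with the striatal score (permutation p = 0.143, adjusted p = 0.471; rho = -0.40, adjusted p = 0.241), which became 0.52 and -0.56 without the 2 farthest mice of each score. With the oligodendrocyte score the r of Rheb was -0.39 (permutation p = 0.0303, adjusted p = 0.242, rho = -0.39, adjusted p = 0.241). In line 1 and line 3 alone, the r of Rheb was -0.57 and -0.27 with the microglia score and 0.47 and 0.215 with the BLA score. It was -0.58 and 0.04 with the striatal score and -0.64 and -0.13 with the oligodendrocyte score. The mouse of low connectivity had the highest BLA sum, 3728 CPM, with the lowest Rheb value, 27.1 CPM.

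The genes most like each member were the 3 with the highest r over the 31 mice on the same scale, among 8429 genes with a mean of at least 10 CPM. They are given as a description, since the mice share their variation in tissue makeup. Rheb had the closest neighbours beside Akt1: Astn1 (r = 0.85, rho = 0.84), Slc7a8 (0.84, rho = 0.81) and Atp6v1b2 (0.84, rho = 0.83). Akt1 was nearest to Gm37214 (0.86, rho = 0.70), Ndufb3 (0.85, rho = 0.72) and Gm37065 (0.85, rho = 0.75).

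Mtor was nearest to Ube2r2 (0.72), Slirp (0.68) and Akt1 itself (0.66). Tsc2 was nearest to Pcsk1n (0.75), Gpx4 (0.73) and Aplp1 (0.71), and Rictor to Cdc5l (0.72), Vapa (0.70) and Mrfap1 (0.69). Tsc1 was nearest to Smyd3 (0.66), Ehbp1l1 (0.65) and Dffa (0.62), Rptor to Coq3 (0.61), Dnajc15 (0.58) and Preb (0.57), and Rps6kb1 to Zfp865 (0.60), Sumf1 (0.58) and Pus7 (0.58).

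For 2 members the annotation places a gene on the opposite strand across the 3′ end, where these libraries are read. Tsc2 overlaps Pkd1 by 693 bases and Rps6kb1 overlaps Rnft1 by 155 bases, and these neighbours had mean counts of 8.07 and 33.6 per mouse, against medians of 300.0 and 229 for the members. Whether the counting used strand is not stated, so it is not known whether reads of each pair in the shared bases were kept apart.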

How the data were processed

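Per the labels and the study's methods, the authors sequenced QuantSeq 3′ libraries, mapped reads with STAR to GRCm38, ran Picard and MultiQC and used Salmon; versions are not given in the sources used here. They deposited 1 table of expected counts per mouse (estimated counts, not normalized), which were rounded here. Each mouse was 1 replicate, and 0 columns were left out. GENCODE vM21 (GRCm38) named 48349 of 48709 genes.

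Genes that reached 10 reads in 20% or more of the mice were kept, scaled by TMM and tested with edgeR 4.0.16 (R 4.3.3; quasi-likelihood, two-sided for 1 term; sex, line, genotype; a second fit added the interaction), with p-values adjusted by Benjamini-Hochberg over all 17428 genes. CPM are TMM-normalized, and log2 CPM had a prior count of 2. The study's 5 sequencing components were not used here, and an alternative added 5 surrogate variables (sva 3.50.0) in their place. Alternatives also used DESeq2 1.42.0, RLE factors, no filter, age, marker scores, subsets of mice and each mouse left out. Permutations (100000, numpy 2.4.6, scipy 1.17.1) tested order, ratios and correlations. Connectivity Z-scores under -2 marked 1 mouse. Marker scores are means of standardized log2 CPM.

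The text names all members, a set of core pathway genes, every wider-list gene with a p under 0.05 for genotype or interaction, and the 3 most like genes; genes named for line, sex or single lines, and Itfg2 and Rhebl1, were chosen after their values were seen. The members and lists were chosen with earlier results of these data known. Some genes of the wider list are counted but not reported here by name. The total counts limit precision most for genes under about 10 CPM. P-values set a difference or correlation against the spread between mice. Mice that share a name prefix count there as separate replicates, except in the fits with that prefix as a block.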

Additional observations from a re-analysis of the deposited data

Results flagged for a closer look

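Rheb had an unadjusted p under 0.05 for the genotype by line interaction, with an estimate of -0.48 in log2, from a higher fitted level in CYFIP1 OE mice of line 1 and a lower one in those of line 3 (edgeR p = 0.0252, adjusted p = 0.57; 8 interactions tested, 1 under 0.05, where 8.1% of all genes had one). Striatal projection neuron markers had an interaction of the opposite sign (median 1.497), and the part of tissue makeup was not tested beyond the fit with marker scores, in which the Rheb estimate was -0.35 (p = 0.128), and the fit with 5 surrogate variables, in which it was -0.07 (p = 0.665). In line 1 most WT mice shared a name prefix that no CYFIP1 OE mouse had, so the interaction and that prefix cannot be told apart. In the 32 sets of values by member, genotype and line, no mouse stood apart from its group by Dixon's test at 95%, by which chance flags about 1 in 20 groups.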

How the results depend on the processing

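The count of members with a p under 0.05 by genotype, 0 as reported, was 1 with 5 surrogate variables (Tsc2) and 1 in line 1 alone (Rheb, log2 difference 0.30, p = 0.041), and 0 in all leave-one-out fits. Rictor and Rps6kb1 kept the sign of their genotype difference in all 43 alternatives, and the other 6 members changed sign in 1 to 12 of them. The wider-list count by genotype, 0 as reported, was 2 without a filter on low counts, 2 with age as a covariate, 2 with 5 surrogate variables, 1 with marker scores, 2 without mice aged 77 days, 1 without the mouse of low connectivity, 5 in line 1 alone, 3 in line 3 alone 3 with name prefix as a block and 4 in line 3 alone with that block (added after the data were seen), and 0 to 2 with 1 mouse left out (above 0 without WT replicates 3, 6, 10, 11, 12 or 14 or CYFIP1 OE replicates 1, 2, 4, 6, 12 or 13). For line, the members' count of 2 was 1 without a filter, with 5 surrogate variables, with marker scores, without the mouse of low connectivity and among CYFIP1 OE mice alone, 0 with age as a covariate, without mice aged 77 days and among WT mice alone, and 0 to 2 with 1 mouse left out. Mtor lost its p under 0.05 without WT replicates 1, 4, 7 or 12 or CYFIP1 OE replicates 1, 3, 5, 9 or 13, and Rictor kept its own in 7 of 31 such fits, those without WT replicates 3 or 7 or CYFIP1 OE replicates 1, 2, 3, 6 or 7. For sex, the count of 0 was 2 with 5 surrogate variables (Akt1, Rheb), 1 with marker scores and 1 without mice aged 77 days (both Akt1), and 0 to 2 with 1 mouse left out: Akt1 passed without WT replicates 3, 4, 11, 14 or 16 or CYFIP1 OE replicates 4 or 5, and Rheb without WT replicate 3. For the interaction, the members' count of 1 was 0 with age, with marker scores and without mice aged 77 days, stayed 1 with 5 surrogate variables (there Tsc2, not Rheb) and was 0 to 1 with 1 mouse left out. The wider-list count of 11, recomputed under settings added after the data were seen, was 6, 2, 2 and 6 with age, surrogate variables, marker scores and without mice aged 77 days, and 8 to 13 with 1 mouse left out. The share of all genes with such a p was not computed for any alternative fit. The counts therefore do not set the members or the wider list apart from other genes. The ratio differences turned sign in line 1 alone (Rptor to Rictor -0.021, permutation p = 0.929; Tsc1 to Tsc2 -0.044, permutation p = 0.8) and were 0.06 to 0.17 and 0.17 to 0.28 with 1 mouse left out. Pairs of members that passed, 1 as reported, were 2 with sex and line not removed, 3 in line 1 alone and 0 in line 3 alone. Relations with marker scores, 1 as reported, were 2 with sex and line not removed and 0 without the mouse of low connectivity, in line 1 alone and in line 3 alone. The cause of these shifts was not tested, beyond the fewer mice in the subsets. No paired analysis was possible because the replicate numbers were given in accession order and pair no mice. Mice that share a name prefix were compared only in the fits with that prefix as a block, in which no member had a p under 0.05. Depth limits the genes with few reads, such as Akt1s1, Rragb and Eif4ebp1, more than the 8 members.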
